A study of Rattus norvegicus with 65 samples.

Results

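Hypothalamic mRNA of body-weight-matched (BWM), chronically food-restricted rats was set against that of saline-treated rats within batch A, the first of the 2 periods in which the experiment was run. The comparison held 10 of the 65 libraries of the series, 7 BWM and 3 saline, chosen by group and batch as the labels give them, and it covered all genes. Each library came from the hypothalamus of 1 animal, and the deposited values were counts of reads per gene. BWM replicate 5 carried very high pituitary hormone mRNA, so results were computed with and without it.

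The animals of both groups were male Wistar rats, 9–10 weeks old at the start, made obese by 6 weeks of free access to a high-fat diet. BWM rats then received only as much high- and low-fat diet as rats with a Roux-en-Y gastric bypass ate, so that their body weight followed the course of those animals. Saline rats had a free choice of both diets and received isotonic saline through an osmotic minipump and by daily subcutaneous injection, with neither liraglutide nor PYY3-36. Tissue was taken 4 weeks after the intervention, following 10 h of fasting, from animals in deep anesthesia. The study also describes plasma taken while fasted and after an oral mixed meal, shortly before euthanasia. It does not state which animals had that meal. The study also describes the BWM group once as sham-operated, which its account of the groups does not repeat, so a sham operation may separate BWM from saline rats as well. Food restriction, pump, injections, free diet choice and any such surgery differed between the groups together and cannot be told apart, and all BWM animals of the series belonged to batch A. Other batch A groups appear below for comparison. Sham rats had a sham operation, and gastric bypass rats the Roux-en-Y operation. PYY3-36 + liraglutide rats received PYY3-36 by minipump and liraglutide by subcutaneous injection. These groups had a free choice of both diets. The methods describe no group called lean, so those animals are known by their label only. The study also names a low-fat-diet-only group, without linking it to that label.

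The hypothalamus senses energy stores and sets feeding. In its arcuate nucleus, neurons making AgRP and NPY promote eating, and neurons making POMC and CART peptides restrain it through melanocortin receptors. Long food shortage lowers leptin and is known to activate the adrenal axis, and immediate early genes are transcribed within minutes of neuronal or hormonal stimulation, before new protein is made.

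Between BWM and saline rats, edgeR's quasi-likelihood test called 0 of 20457 genes (0%) in either direction. A call needed an adjusted p below 0.05 (Benjamini-Hochberg, over every gene tested) together with a log2 fold change beyond 1 in either direction. The smallest adjusted p was 0.96. At an unadjusted p under 0.05 there were 363 genes (1.77%) with higher and 281 (1.37%) with lower mRNA in BWM rats, 644 in all (3.15%). The median log2 fold change of all genes tested was 0.03. Without BWM replicate 5 the test again called 0 of 20365 genes (0%), and 402 (1.97%) and 273 (1.34%) had an unadjusted p under 0.05. DESeq2's Wald test, the other tool used, called 7 genes in the 10 libraries (0.0255%) and 6 without BWM replicate 5 (0.0261%), and edgeR called 9 genes higher (0.0412%) and 0 lower when all 65 libraries were modelled with a batch term. The values below are therefore a description of genes and gene groups, and no single gene named here passed the edgeR test across all genes, with an adjusted p of at least 0.96 for each.

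The count of genes at an unadjusted p under 0.05 depended on single libraries. Without BWM replicate 1 it was 1007 higher and 555 lower, without saline replicate 1 it was 610 and 213, without saline replicate 2 it was 112 and 94, and without saline replicate 3 it was 235 and 227. The libraries held 26168461 to 32726652 counts on genes, so depth was alike in both groups, and mitochondrial rRNA and tRNA took 0.593% to 1.92% of the counts.

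Libraries differed in their markers of brain regions and neighbouring tissue. Levels are given here and below as CPM, a gene's counts relative to the TMM-scaled total of its library. In BWM replicate 5 the 13 markers of the anterior pituitary summed to 78576 CPM, against 6.01 to 1243 CPM in the other 6 BWM and 6.52 to 535 CPM in the saline libraries. Gh1, growth hormone, reached 64037 CPM in it and Prl, prolactin, 13157 CPM, while saline libraries held at most 0.675 and 0.450 CPM. Pou1f1, the transcription factor of the cells that make both hormones, was at 178 CPM in BWM replicate 5 and at 0 in all saline libraries.

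BWM replicate 1 had the lowest sum of all BWM libraries for the markers of every hypothalamic nucleus or region listed, and was high in striatal ones. Its ventromedial sum was 3.89 CPM and its mammillary sum 0.691 CPM, against at least 69.5 and 5.42 CPM in the other BWM libraries. Its arcuate sum of 158 CPM and suprachiasmatic sum of 43.3 CPM lay nearer to the next lowest, 183 and 48.1 CPM. Its 4 lateral hypothalamic markers summed to 4.0 CPM and its 6 paraventricular and supraoptic markers to 11.2 CPM, while the 9 striatal markers summed to 4682 CPM against 161 to 491 CPM in the other 9 libraries. Saline replicate 3 was low in the lateral hypothalamic markers, at 6.88 CPM against 691 and 802 CPM in saline replicates 1 and 2. Its paraventricular and supraoptic sum was 155 CPM against 921 and 917 CPM in those 2, and BWM replicates 5 and 7 were as low, at 119 and 163 CPM. The 9 pan-hypothalamic transcription factors were not low in either library: they summed to 99.4 CPM in BWM replicate 1, the second highest of the BWM libraries, and to 167 CPM in saline replicate 3, the highest of all 10. BWM replicate 7 was outlying for markers of habenula and thalamus, at 254 CPM against 65.6 to 144 CPM in the other 9 libraries, and for tanycyte markers, at 1489 CPM against 155 to 802 CPM. Hcrt, the orexin precursor made only in the lateral hypothalamus, was at 0.0658 CPM in BWM replicate 1 and 0.0375 CPM in saline replicate 3. In bulk tissue, fewer cells of a type and less mRNA per cell cannot be told apart. Every group of genes below was also computed without BWM replicate 1 and saline replicate 3, a choice made after seeing the data, which left 6 BWM and 2 saline libraries and again 0 calls by edgeR.

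**Figure D1:**
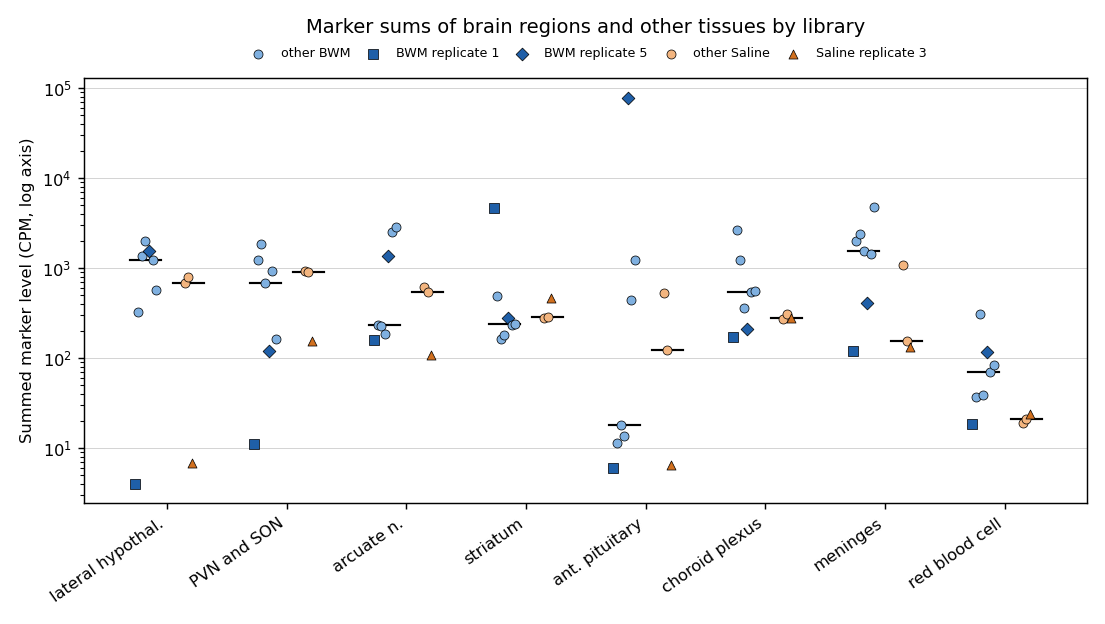
Summed CPM of marker genes (log axis) for 4 brain regions and 4 other tissues in each of the 7 BWM (blue) and 3 saline (orange) libraries, with black lines at the group medians. BWM replicate 5 stands at 78576 CPM for the pituitary, BWM replicate 1 at 4682 CPM for the striatum, and BWM replicate 1 and saline replicate 3 lie at the bottom for the lateral hypothalamus.

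Immediate early genes formed the list with the highest median difference between BWM and saline rats among the pathway lists. All 20 members were tested and all 20 had a log2 fold change above 0, with a list median of 1.63 against 0.03 for all genes. An unadjusted p under 0.05 was reached by 14 of them, all higher in BWM rats (background 1.77%). In 6 of the 20, every BWM library lay above every saline library, which was so for 0.763% of all genes tested. Summed over the list, levels were 784, 526, 447, 409, 1455, 712 and 1401 CPM in BWM replicates 1 to 7 and 304, 269 and 247 CPM in the saline libraries. The ranges of the sums did not overlap.

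The list median stayed above 0 in every set of libraries tried. Without BWM replicate 5 its median was 1.43, 11 members had an unadjusted p under 0.05 and 6 did not overlap (background 1.97% and 1.03%). Without BWM replicate 1 and saline replicate 3 the median was 1.68, with 9 and 10 members (background 2.38% and 3.87%). Without BWM replicate 7 the median was 1.35. In the model of all 65 libraries with a batch term the median was 0.69, and with the replicate number as a block it was 1.02.

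The promoters of 4 members are shown because they hold a sequence through which calcium, cAMP or growth factor signals are known to act on such genes. Of these 4, Dusp1 is among the 6 members whose groups did not overlap, and Ier2, Btg2 and Egr2 are not. Each run is the 250 bases before the annotated RefSeq start, written in the direction of transcription, with the element in capitals. For Dusp1, Ier2 and Btg2 it is the cAMP response element TGACGTCA, and for Egr2 the CArG box bound by serum response factor. The windows lie in build GRCr8 at chr10:17184603-17184852 (plus strand), chr19:40399123-40399372 (plus strand), chr13:48087691-48087940 (minus strand) and chr20:21054442-21054691 (minus strand).
Dusp1: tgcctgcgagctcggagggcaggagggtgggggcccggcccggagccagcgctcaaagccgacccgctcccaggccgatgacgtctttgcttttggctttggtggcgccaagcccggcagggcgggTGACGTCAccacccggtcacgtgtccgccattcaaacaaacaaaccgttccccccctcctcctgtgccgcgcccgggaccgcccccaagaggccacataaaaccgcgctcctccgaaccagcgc
Ier2: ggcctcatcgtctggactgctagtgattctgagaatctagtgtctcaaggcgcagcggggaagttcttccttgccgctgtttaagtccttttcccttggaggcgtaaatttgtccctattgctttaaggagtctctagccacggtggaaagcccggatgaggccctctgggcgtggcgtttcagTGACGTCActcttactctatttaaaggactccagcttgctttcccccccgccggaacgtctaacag
Btg2: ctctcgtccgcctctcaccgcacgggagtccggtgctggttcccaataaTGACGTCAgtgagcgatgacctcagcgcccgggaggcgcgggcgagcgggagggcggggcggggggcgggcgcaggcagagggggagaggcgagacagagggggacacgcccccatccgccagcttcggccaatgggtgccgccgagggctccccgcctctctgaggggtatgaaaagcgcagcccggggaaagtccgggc
Egr2: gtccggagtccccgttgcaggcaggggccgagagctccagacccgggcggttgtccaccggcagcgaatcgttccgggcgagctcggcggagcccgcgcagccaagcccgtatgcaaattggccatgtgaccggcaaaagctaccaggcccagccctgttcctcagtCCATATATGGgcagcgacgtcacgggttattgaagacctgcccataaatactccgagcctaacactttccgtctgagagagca
Of the 20 members, 13 had a promoter in the RefSeq table. The cAMP response element, searched on both strands of which it reads the same, stood in 3 of the 13 and in 1.59% of all 33469 promoter windows of this length. A CArG box stood in 2 of the 13, Egr1 and Egr2, and in 1.5% of all windows. These matches describe the sequence only.

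Nr4a1, an orphan nuclear receptor induced by cAMP and calcium (chromosome 7, 142899358 to 142920216, plus strand, Rnor_6.0), had the highest fold change of the list. Its level was 65.4, 39.0, 33.9, 26.4, 336, 87.9 and 164 CPM in BWM replicates 1 to 7 and 17.4, 12.2 and 11.6 CPM in the saline libraries. All 7 BWM values lay above all saline values, and BWM replicate 5 was the highest. The log2 fold change was 2.97 ± 0.86 (SE), and 2.34 ± 0.60 without BWM replicate 5. DESeq2's Wald test called it with an adjusted p of 0.0404, while its adjusted p ran from 0.431 to 1 in the other alternatives.

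Dusp1, a phosphatase that switches off MAP kinases (chromosome 10, 16970642 to 16973425, plus strand, Rnor_6.0), was at 43.9, 90.6, 59.3, 53.9, 40.2, 65.6 and 211 CPM in BWM and 27.5, 19.5 and 21.4 CPM in saline rats. The groups did not overlap, and the log2 fold change was 1.82 ± 0.52. Fos, the classic marker of recent neuronal activity, was at 29.4, 31.6, 30.6, 27.2, 54.9, 30.3 and 81.3 CPM against 19.8, 18.7 and 9.90 CPM. In Fos, 5 of the 7 BWM libraries lay within 27.2 to 31.6 CPM, just above the highest saline value, and the log2 fold change was 1.34 ± 0.40. The partner gene Fosb ran from 3.93 to 36.2 CPM (median 6.87) against 2.53 to 3.24 CPM, also without overlap, and its log2 fold change was 1.94 ± 0.74 with BWM replicate 5 and 1.27 without it.

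Klf2, a transcription factor prominent in endothelium, ran from 15.0 to 87.4 CPM (median 29.2) against 11.5 to 12.7 CPM, with a log2 fold change of 1.56 ± 0.48. Egr1, a zinc finger factor, ran from 26 to 128 CPM against 17.3 to 24.7 CPM, and these 2 genes complete the 6 members without overlap. Egr1 was at 96.6, 119 and 128 CPM in BWM replicates 1, 5 and 7 and at no more than 30.7 CPM in the other 4. Junb, Ier2, Btg2, Atf3 and Egr2 had log2 fold changes of 1.28, 1.59, 1.93, 2.11 and 2.44, and at least 1 BWM library of each lay within the saline range. For Egr2, BWM replicate 5 was at 24.7 CPM and the other 6 at 1.06 to 8.13 CPM, against 0.600 to 2.22 CPM in saline rats.

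Several members differed widely among BWM libraries. Arc, whose protein acts at active synapses, was at 133, 208 and 84.7 CPM in BWM replicates 1, 5 and 6 and at 12.9 to 35.1 CPM in the other 4, against 13.7 to 18.4 CPM in saline rats. Egr3 and Egr4 were highest in BWM replicate 1, at 101 and 33.3 CPM, and Egr3 was at 3.67 to 36.5 CPM in the other BWM and 3.60 to 12.6 CPM in the saline libraries. Npas4, a neuronal activity gene, ran from 3.68 to 24.6 CPM against 4.54 to 10.7 CPM, with a log2 fold change of 0.77 ± 0.57. Arc and Npas4 levels overlapped between the groups.

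Apold1, an early response gene of endothelial cells (chromosome 4, 168752142 to 168755024, plus strand, Rnor_6.0), was not on the list but ranked among the 10 higher genes with the smallest p. It was at 29.8, 31.2, 25.6, 27.5, 31.8, 34.0 and 129 CPM in BWM and 9.64, 8.21 and 8.06 CPM in saline rats. All BWM values lay above all saline values, and the log2 fold change was 2.35 ± 0.57. BWM replicate 7 was the outlying value. Without that library the log2 fold change was 1.80 and Apold1 became the only gene called by edgeR, with an adjusted p of 0.00551, against 0.623 to 1 without each other library. Both DESeq2 tests called it as well.

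Marker sums of vessels and blood did not follow the immediate early sums in every BWM library. BWM replicate 5, with the highest immediate early sum at 1455 CPM, had the lowest endothelial sum at 386 CPM. BWM replicate 3 had the highest red blood cell sum at 307 CPM and an immediate early sum of 447 CPM. The 9 endothelial markers summed to 386 to 986 CPM in BWM (median 546) and 387 to 482 CPM in saline rats, with the highest value in BWM replicate 7, and 1 of 9 was higher at an unadjusted p under 0.05 (background 1.77%). The 7 red blood cell markers summed to 18.6, 37.3, 307, 38.5, 117, 69.5 and 84.4 CPM in BWM replicates 1 to 7 and 19.1 to 23.8 CPM in saline rats. Of the 6 tested, 5 were higher at an unadjusted p under 0.05 (background 1.77%). Hbb, a globin chain, was at 6.19 to 74.1 CPM against 4.46 to 6.07 CPM, without overlap. Their part in the difference of the immediate early genes was not tested.

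**Figure D2:**
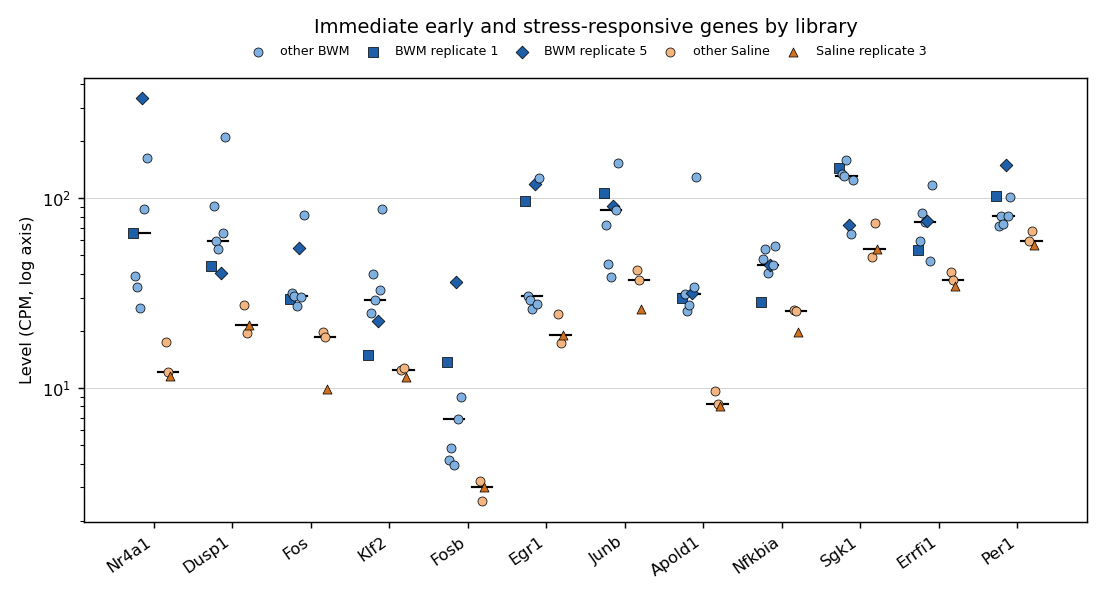
CPM (log axis) of 12 genes in each BWM (blue) and saline (orange) library, with black lines at the medians. All BWM points of Nr4a1, Dusp1, Fos, Klf2, Fosb, Egr1, Apold1, Nfkbia, Errfi1 and Per1 lie above all saline points, while Junb and Sgk1 overlap.

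Glucocorticoid-responsive genes were higher in BWM rats by a smaller amount. Of the 22 members tested, 19 had a log2 fold change above 0, 9 were higher at an unadjusted p under 0.05 (background 1.77%) and 0 lower (background 1.37%), and the list median was 0.53. The sum ran from 692 to 1003 CPM in BWM and was 597, 636 and 582 CPM in saline rats, without overlap. Without BWM replicate 5 the median was 0.47, and without BWM replicate 1 and saline replicate 3 it was 0.52, each with 9 members at an unadjusted p under 0.05 (background 1.97% and 2.38%). Without BWM replicate 7 it was 0.51, and in the 65-library model 0.17.

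Errfi1, a feedback inhibitor of the EGF receptor, was at 53.2, 59.5, 84.1, 74.7, 76.2, 46.5 and 117 CPM in BWM and 41.1, 37.2 and 34.6 CPM in saline rats, a log2 fold change of 0.96 ± 0.26. Per1, a clock gene that glucocorticoids induce, was at 71.5 to 149 CPM (median 81.1) against 56.6 to 67.3 CPM, a log2 fold change of 0.63 ± 0.22. These 2 of the 22 members did not overlap between the groups (background 0.763%). Sgk1, a kinase induced by corticosteroids (chromosome 1, 24185451 to 24302309, minus strand, Rnor_6.0), was at 145, 134, 131, 159, 72.5, 65 and 125 CPM against 49.2, 74.5 and 54.4 CPM, and BWM replicates 5 and 6 lay below saline replicate 2. Its log2 fold change was 1.0 ± 0.29.

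Sult1a1, Map3k6, Mt2A, Cdkn1a and Ddit4 had log2 fold changes of 1.56, 1.31, 1.08, 0.87 and 0.54, all with overlapping levels. Defining members did not all share the pattern. Fkbp5, a chaperone of the glucocorticoid receptor and one of its best-known targets, was at 113 CPM in BWM replicate 1 and 28.3 to 78.7 CPM in the other BWM libraries, against 29.3 to 35.5 CPM in saline rats. Its log2 fold change was 0.75 ± 0.41. Tsc22d3, another direct target, was at 78.2 to 135 CPM against 80.5 to 109.6 CPM, with a log2 fold change of 0.26 ± 0.18. Nr3c1, the receptor itself, had a log2 fold change of -0.14 ± 0.19.

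A full glucocorticoid response element, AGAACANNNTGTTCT, was found on either strand in 0 of 30 promoter windows of 19 list members, and in 0.012% of all windows of 250 bases. That count covers these letters in this window only.

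Among 20 genes of inflammatory cytokines and NF-kB, 17 had a log2 fold change above 0, the median was 0.44, and 2 of them, Nfkbia and Ccl2, were higher at an unadjusted p under 0.05 (background 1.77%). Nfkbia, the inhibitor that holds NF-kB in the cytoplasm (chromosome 6, 76267227 to 76270457, minus strand, Rnor_6.0), was at 28.5, 47.8, 54.0, 40.4, 44.5, 44.4 and 55.9 CPM in BWM and 25.8, 25.4 and 19.8 CPM in saline rats. The groups did not overlap, and the log2 fold change was 0.93 ± 0.20. It was 0.93 without BWM replicate 5 and 0.92 without BWM replicate 1 and saline replicate 3. Ccl2, a monocyte-attracting chemokine, was scarce, at 0.165 to 1.93 CPM against 0 to 0.193 CPM, with overlap. The 16 microglial markers had a median of -0.12, with sums of 615 to 1006 CPM in BWM and 766 to 1006 CPM in saline rats. Cx3cr1, the fractalkine receptor of microglia, was at 5.94 to 18.9 CPM against 18.7 to 24.4 CPM.

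The same lists in other groups of batch A are set beside these values as levels only, scaled over the 37 libraries of the batch. Sums of the immediate early genes were 244 to 301 CPM in saline, 244 to 429 CPM in PYY3-36 + liraglutide, 391 to 1009 CPM in sham, 273 to 1533 CPM in gastric bypass, 295 to 2170.2 CPM in lean and 406 to 1459 CPM in BWM animals. The medians were 266, 316, 461, 476, 573 and 714 CPM in that order of groups. Glucocorticoid sums had medians of 589.7 CPM in saline, 698 CPM in PYY3-36 + liraglutide, 739.9 CPM in sham, 772 CPM in gastric bypass, 684 CPM in lean and 945 CPM in BWM animals. Apold1 had a median of 8.11 CPM in saline, 40.0 CPM in sham, 43.0 CPM in lean and 31.3 CPM in BWM animals. For Errfi1 the medians were 36.7 CPM in saline, 40.0 CPM in sham and 74.2 CPM in BWM animals.

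In the same 37-library fit, edgeR called 246 genes higher (1.13%) and 27 lower (0.124%) in BWM than in the 5 sham rats of batch A, and 0 genes (0%) between sham and saline rats. For BWM against saline it called 0 (0%), with 775 genes higher (3.56%) and 247 lower (1.13%) at an unadjusted p under 0.05. The contrasts share libraries, and 3 saline libraries against 5 sham libraries also differ in number. Of the genes above, Nr4a1 had a log2 fold change of 1.53 for BWM over sham and 1.46 for sham over saline, and Dusp1 0.53 and 1.31. Errfi1 had 0.83 and 0.15.

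**Figure D3:**
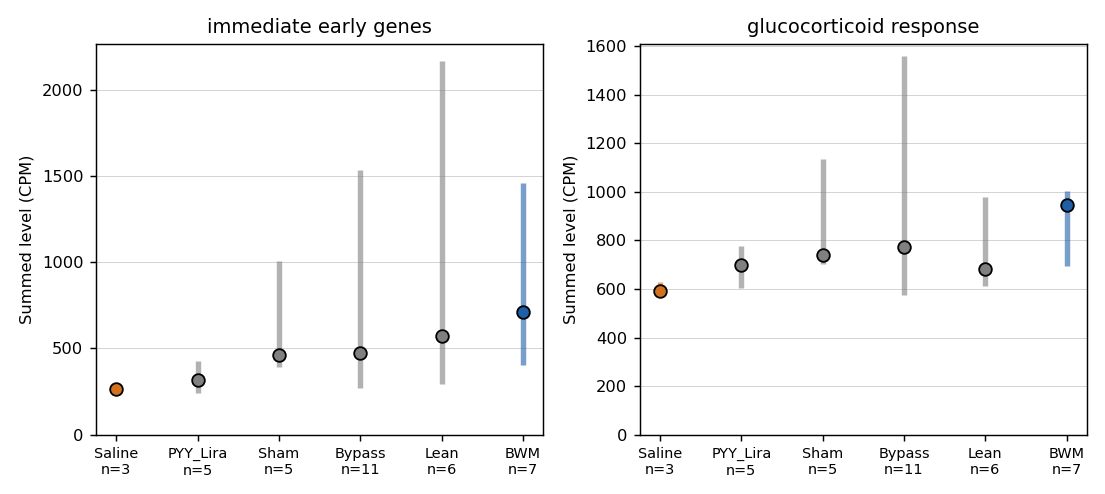
Summed CPM of the 20 immediate early genes (left) and the glucocorticoid-responsive genes (right) in the 6 groups of batch A, scaled over 37 libraries, with bars from the lowest to the highest library and points at the median. Saline has the lowest median and BWM the highest in both panels, 266 against 714 CPM and 589.7 against 945 CPM.

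Both lists of feeding peptides and receptors had medians below 0, and levels of many members varied widely among libraries of the same group. Of 17 genes for appetite-stimulating peptides and their receptors, 6 had a log2 fold change above 0, 0 had an unadjusted p under 0.05 in either direction, and the median was -0.55. Of 24 genes for appetite-suppressing peptides and receptors, 9 were above 0, 2 were lower at an unadjusted p under 0.05 (background 1.37%), and the median was -0.25. The sums overlapped, at 89.1 to 2141 CPM against 85.9 to 1023 CPM for the first list and 907 to 3876 CPM against 1132 to 1956 CPM for the second. Without BWM replicate 1 and saline replicate 3 the medians were -0.69 and -0.45.

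Agrp, the melanocortin antagonist known to be induced by hunger, was at 0.593, 1.35, 0.770, 0.617, 0.770, 16.5 and 6.97 CPM in BWM and 8.74, 10.6 and 0.562 CPM in saline rats. Only BWM replicate 6 exceeded the saline values, and the log2 fold change was -0.76 ± 1.16. Npy, made in the same arcuate neurons and in many others, was at 5.34 to 62.0 CPM (median 14.9) against 12.6 to 19.6 CPM, a log2 fold change of 0.36 ± 0.75. Pomc, the precursor of the melanocortin agonist, was at 3.42, 56.7, 84.2, 18.8, 1209, 2157 and 2525 CPM in BWM and 266, 233 and 3.86 CPM in saline rats. Its 3 highest BWM values belonged to the 3 BWM libraries with the highest pituitary marker sums, 78576, 440.0 and 1243 CPM, and the pituitary also makes Pomc. The order differed, since BWM replicate 5 had the highest pituitary sum and the lowest Pomc of these 3. Saline replicate 1 had a pituitary sum of 535 CPM, above that of BWM replicate 6, with Pomc at 266 CPM. The part of pituitary tissue in the Pomc levels was not tested. Cartpt, the CART precursor, was at 91.7 to 269.7 CPM (median 117) against 21.5 to 267 CPM.

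Orexin and melanin-concentrating hormone, from the lateral hypothalamus, were lowest in BWM replicate 1 and saline replicate 3. Hcrt was at 35.9 to 226 CPM in BWM replicates 2 to 7 and 53.0 and 90.3 CPM in saline replicates 1 and 2. Pmch was at 281 to 1786 CPM in those BWM libraries and 593 and 651 CPM in those saline libraries. Without BWM replicate 1 and saline replicate 3 the log2 fold changes were 0.89 for Hcrt and 0.73 for Pmch, and neither reached an unadjusted p under 0.05.

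Several receptors of feeding hormones had lower levels in BWM rats. Npy2r, the receptor through which PYY3-36 acts (chromosome 2, 181528949 to 181538145, minus strand, Rnor_6.0), was at 5.84, 6.53, 6.30, 14.2, 4.76, 10.3 and 7.94 CPM in BWM and 16.4, 20.9 and 14.4 CPM in saline rats. All BWM values lay below all saline values, which was so for 0.738% of genes. BWM replicate 4 came closest to the saline range. The log2 fold change was -1.11 ± 0.30, and -1.02 ± 0.29 without BWM replicate 5. Glp1r, the receptor of GLP-1 (chromosome 20, 9586075 to 9626228, plus strand, Rnor_6.0), was at 2.90, 1.6, 1.95, 2.24, 1.12, 2.88 and 4.64 CPM against 9.20, 9.03 and 2.61 CPM. Saline replicate 3 lay among the BWM values, and the log2 fold change was -1.49 ± 0.45. Without BWM replicate 1 and saline replicate 3 it was -1.90.

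Ghsr, the ghrelin receptor, was at 0.395 to 5.82 CPM (median 2.86) in BWM and 9.19, 11.6 and 1.61 CPM in saline rats, a log2 fold change of -1.38 ± 0.65. Mc3r, a melanocortin receptor, was at 0 to 3.64 CPM (median 2.80) against 7.32, 7.19 and 1.95 CPM, a log2 fold change of -1.19 ± 0.84. Both overlapped only through saline replicate 3. Without it and BWM replicate 1, Ghsr was at -1.65 and Mc3r at -1.35. In that set, 6 of 24 appetite-suppressing and 3 of 17 appetite-stimulating genes were lower at an unadjusted p under 0.05 (background 1.96%). On the lower side, 6 and 5 did not overlap (background 4.85%). Qrfp stands among the 17 under more than 1 gene entry with identical levels, and each entry is among the 5.

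Markers of hypothalamic regions had medians on both sides of 0. The 9 pan-hypothalamic factors summed to 51.8 to 153 CPM in BWM (median 75.2) and 108, 104 and 167 CPM in saline rats, with 1 of 9 log2 fold changes above 0, a median of -0.67 and 0 of 9 at an unadjusted p under 0.05. Nkx2-1, which specifies the ventral hypothalamus, was at 4.35 to 30.3 CPM against 42.6, 33.5 and 18.1 CPM. The 4 ventromedial markers had a median of -1.18, with sums of 3.89 to 154 CPM against 137, 188 and 25.2 CPM and 0 of 4 at an unadjusted p under 0.05. The arcuate markers had a median of -0.62, and the medians were 0.57 for lateral hypothalamic, 0.48 for mammillary, 0.19 for suprachiasmatic and 0.13 for paraventricular and supraoptic markers. Without BWM replicate 1 and saline replicate 3, lower markers at an unadjusted p under 0.05 were 3 of 4 ventromedial, 4 of 9 pan-hypothalamic and 2 of 8 arcuate (background 1.96%). Their medians were then -1.50, -0.85 and -0.84. In that set 1 of 5 suprachiasmatic markers was lower and 1 of 6 paraventricular and supraoptic markers higher (background 2.38%). Lateral hypothalamic and mammillary markers had 0 in either direction. The part of the dissected region in the lower receptor levels was not tested. On the 37-library scale, Glp1r had medians of 2.59 CPM in sham, 2.88 CPM in lean, 2.23 CPM in BWM and 8.92 CPM in saline rats. For Npy2r the medians were 11.6 CPM in sham, 7.18 CPM in lean, 6.55 CPM in BWM and 16.2 CPM in saline rats.

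Mc4r, the melanocortin receptor through which feeding is restrained, was at 12.8 CPM in BWM replicate 1 and 1.62 to 5.31 CPM in the other BWM libraries, against 3.53, 2.91 and 7.61 CPM, a log2 fold change of 0.02 ± 0.59. Lepr, the leptin receptor, was at 3.26, 4.85, 13.1, 8.30, 5.02, 4.18 and 36.1 CPM in BWM and 7.89, 5.35 and 3.15 CPM in saline rats, a log2 fold change of 0.97 ± 0.75. The estimate depended on BWM replicate 7, which also had the highest meningeal, endothelial and tanycyte marker sums, at 4782, 986 and 1489 CPM. Without BWM replicate 7 the Lepr value was 0.24. In the 37-library fit Lepr had a log2 fold change of 1.83 for BWM over sham and -0.85 for sham over saline. The 21 genes of leptin receptor signalling, from Jak2 to the insulin receptor, had a median of 0.01 with 11 above 0 and 0 at an unadjusted p under 0.05.

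**Figure D4:**
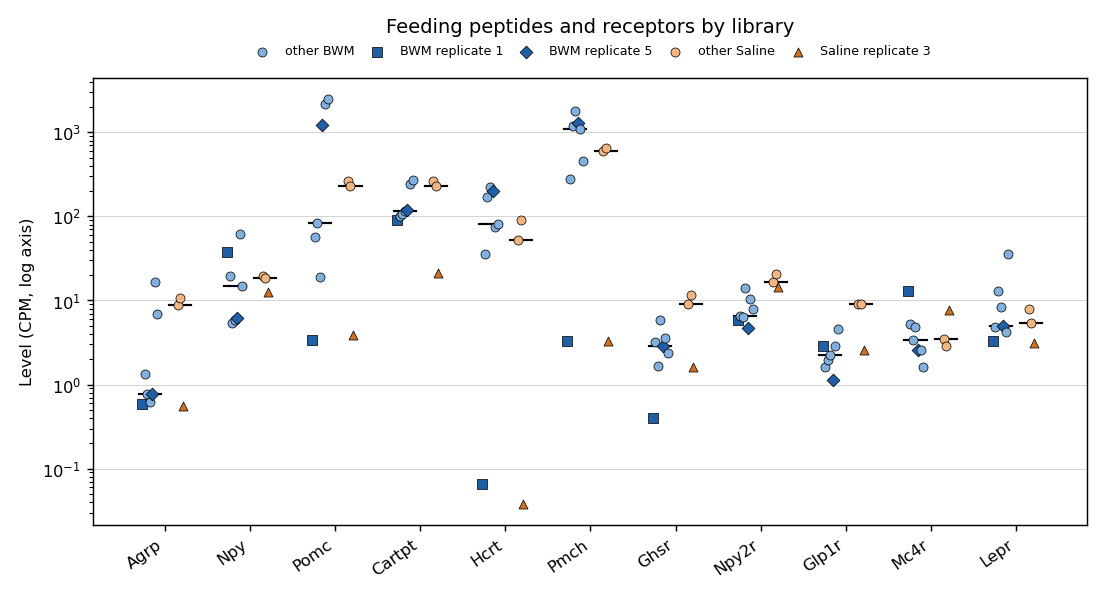
CPM (log axis) of feeding peptides and receptors in each BWM (blue) and saline (orange) library, with black lines at the medians. Npy2r is the gene shown whose groups do not overlap, and BWM replicate 1 and saline replicate 3 lie lowest for Hcrt and Pmch.

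Vasopressin and oxytocin mRNA, of the paraventricular and supraoptic nuclei, varied over several orders of magnitude among BWM libraries, with BWM replicate 1 lowest. Avp, vasopressin, was at 0.543 to 756 CPM in BWM and 12.6 to 418 CPM in saline rats, a log2 fold change of 0.03 ± 1.47, and Oxt, oxytocin, at 0.609 to 893 CPM against 83.8 to 458 CPM, a log2 fold change of 0.23 ± 1.31. Crh, which drives the adrenal axis, was at 3.59 to 10.2 CPM (median 5.65) in BWM and 1.70, 2.50 and 8.62 CPM in saline rats. Its log2 fold change was 0.54 ± 0.49 and became 1.55 without BWM replicate 1 and saline replicate 3. Trh, which drives the thyroid axis, was at 3.13 to 220.2 CPM against 46.0 to 169 CPM, a log2 fold change of -0.05 ± 0.83. Ghrh, the growth hormone releasing hormone of the arcuate nucleus, was at 0.395 to 9.16 CPM against 11.3, 10.3 and 1.01 CPM, a log2 fold change of -1.20 ± 0.80. Of the 10 releasing hormone genes tested, 0 reached an unadjusted p under 0.05 in the 10 libraries. Without BWM replicate 1 and saline replicate 3, 1 was higher (background 2.38%) and 3 were lower (background 1.96%) at an unadjusted p under 0.05.

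Oxtr, the oxytocin receptor, was at 3.96 to 11.3 CPM in BWM and 15.0, 16.0 and 6.60 CPM in saline rats. Its log2 fold change was -0.80 ± 0.33, the only one of 10 magnocellular genes at an unadjusted p under 0.05 in the 10 libraries (background 1.37%). Without BWM replicate 1 and saline replicate 3, 3 of the 10 were lower (background 1.96%).

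Genes of energy metabolism differed little. The 22 genes of fatty acid oxidation and ketone use had a median log2 fold change of 0.15. Cpt1a, which admits fatty acids to mitochondria, had a log2 fold change of 0.25 ± 0.32, and 0.06 without BWM replicate 5. Acaca, the first enzyme of fatty acid synthesis, was at 30.4 to 59.2 CPM (median 49.0) against 60.5, 66.7 and 62.8 CPM. It did not overlap between the groups, and its log2 fold change was -0.43 ± 0.21. Of 15 genes of fatty acid synthesis, 2 were above 0 and the median was -0.19, with 0 at an unadjusted p under 0.05.

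The 14 genes of AMPK and energy sensing had a median of 0.02 and the 23 of cholesterol synthesis -0.02. Small positive medians were found for the 37 nuclear subunits of respiratory complex I (0.18, 35 above 0), the 38 of complexes II to V (0.23, 34 above 0) and the 78 cytosolic ribosomal protein genes (0.29, 78 above 0). In these 3 lists, 2 of the 78 ribosomal genes were higher at an unadjusted p under 0.05 (background 1.77%), and no respiratory gene was. The sums overlapped between the groups in all 3 lists. Circadian clock genes had a median of 0.12, with Per1 as the only one of 18 at an unadjusted p under 0.05 (background 1.77% higher). The medians were 0.04 for the thyroid axis, 0.15 for the ER stress response and 0.16 for heat shock genes.

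**Figure D5:**
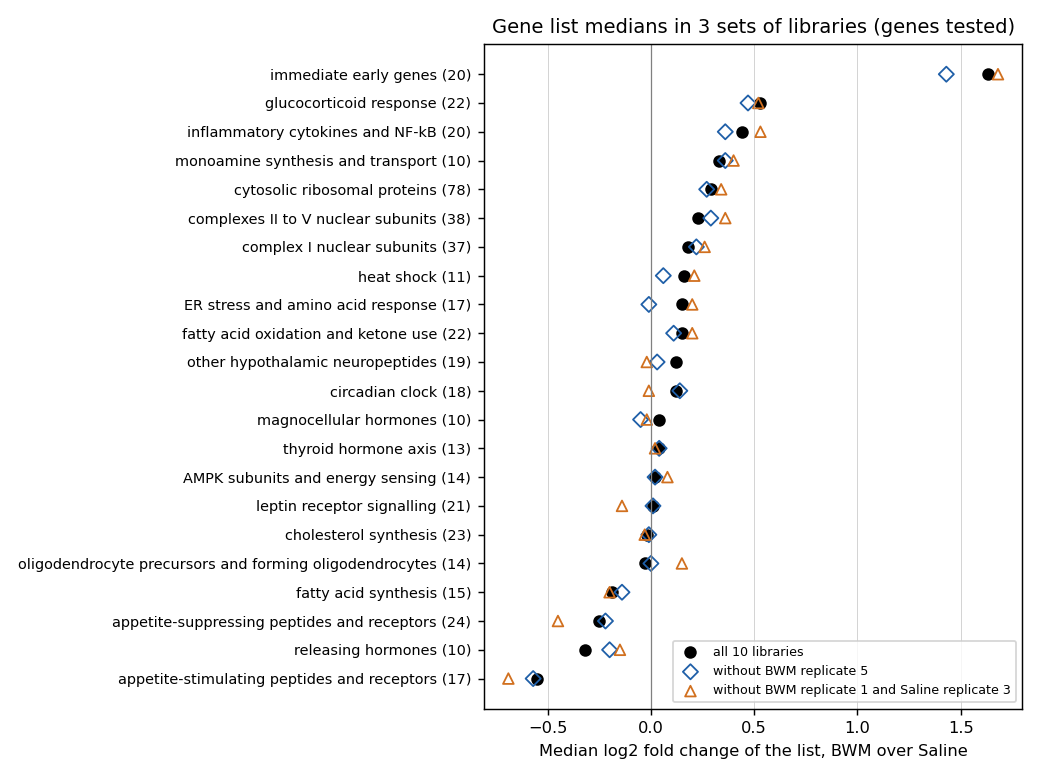
Median log2 fold change of BWM over saline rats for each pathway list, with the number of genes tested in brackets, in all 10 libraries, without BWM replicate 5, and without BWM replicate 1 and saline replicate 3. Immediate early genes lie at 1.43 to 1.68 in the 3 sets, and the other lists between -0.69 and 0.53.

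Markers of choroid plexus and meninges varied widely between libraries. Ttr, the thyroid hormone carrier made in the choroid plexus, was at 23.8, 2079.6, 873, 62.4, 34.7, 221 and 51.6 CPM in BWM and 9.48, 5.81 and 5.51 CPM in saline rats, without overlap, a log2 fold change of 6.11 ± 1.82. The 12 choroid plexus markers as a whole summed to 171 to 2649 CPM against 269 to 307 CPM, with overlap, and 3 of 12 were higher at an unadjusted p under 0.05 (background 1.77%). Meningeal fibroblast markers summed to 119.7 to 4782 CPM (median 1546) against 1087, 153 and 132 CPM. All 13 gene entries of these 12 markers had a log2 fold change above 0, with a median of 1.98. Ogn was entered more than 1 time, with identical levels. The medians were -0.21 for astrocyte, -0.10 for myelin and -0.16 for neuron markers.

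Among the 10 higher genes with the smallest p, 9 did not overlap between the groups, against 0.763% of all genes tested. These genes were ranked by p on the same values, so the count is no separate result. Smpx, a small muscle protein (chromosome X, 40029200 to 40086870, minus strand, Rnor_6.0), was at 0.461, 0.516, 0.240, 0.162, 0.293, 0.369 and 0.602 CPM in BWM rats and at 0 in all 3 saline libraries. Against the level that 3 counts over the saline group would give, 0.0340 CPM, it was at least 11.1-fold higher in these 10 libraries. In the 65-library model the direction turned, with a log2 fold change of -0.34. In sham rats of batch A it ran from 0 to 3.85 CPM. Tspan10, a tetraspanin, was also at 0 in all saline libraries. It was at 0.111 to 0.616 CPM in 6 BWM libraries and at 0 in BWM replicate 5, at least 8.28-fold higher by the same measure. Smpx and Tspan10 passed the filter on low counts through BWM libraries only, and both folds depend on the chosen level of 3 counts.

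Prkd2, a protein kinase D, was at 17.2 to 24.4 CPM (median 19.6) against 11.3 to 12.9 CPM, a log2 fold change of 0.71 ± 0.16. Dll4, the Notch ligand of endothelial tip cells, was at 6.37 to 9.86 CPM against 2.73 to 5.56 CPM, and Egfl8 at 7.99 to 14.4 CPM against 5.14 to 7.74 CPM, with log2 fold changes of 1.04 and 0.83. Dusp5, a phosphatase of ERK, was at 1.92 to 4.87 CPM against 0.722 to 1.24 CPM, a log2 fold change of 1.49. Pcp2 was at 0.422 to 1.78 CPM against 0.0643 to 0.300 CPM, a log2 fold change of 2.79. Chrna5, a nicotinic receptor subunit, was at 1.94, 0.111, 2.91, 3.54, 1.5, 1.66 and 0.380 CPM against 0.0964, 0.0328 and 0.150 CPM, and overlapped through BWM replicate 2. Without BWM replicate 5 the higher genes also included Igfbp1, Tspan10, Fam110d, Slc16a6, Sgk1 and Ppp1r1a.

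Among the 10 lower genes with the smallest p, ranked on the same values, 8 did not overlap, against 0.738% of all genes tested. Fndc9, a fibronectin type III domain protein (chromosome 10, 31322108 to 31325634, Rnor_6.0), was at 4.15, 7.60, 6.61, 9.0, 7.0, 7.43 and 5.70 CPM in BWM and 16.9, 20.0 and 10.4 CPM in saline rats, a log2 fold change of -1.22 ± 0.25. Sstr1, a somatostatin receptor, was at 11.7 to 22.6 CPM (median 15.3) against 27.9, 34.1 and 23.4 CPM, a log2 fold change of -0.84 ± 0.20. Slc29a4, a transporter of monoamines, was at 18.8 to 29.5 CPM against 38.0, 38.8 and 39.9 CPM, with the 3 saline values close together, a log2 fold change of -0.64 ± 0.15.

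Plxnc1, a semaphorin receptor, was at 47.2 to 76.2 CPM against 83.4 to 112 CPM, a log2 fold change of -0.65 ± 0.16, and Gprin2 at 4.40 to 9.23 CPM against 11.2 to 13.5 CPM. Shh, the morphogen that patterns the ventral forebrain, was at 3.44 to 7.21 CPM against 7.13, 10.6 and 10.7 CPM, with BWM replicate 4 inside the saline range, a log2 fold change of -1.0 ± 0.26. Cdh17, a cadherin, was scarce, at 0.0658 to 0.507 CPM against 1.51, 1.58 and 0.300 CPM. The other 3 lower genes carry only a LOC or RGD number. In sham rats of batch A the medians of Fndc9, Sstr1 and Slc29a4 were 4.63, 13.4 and 31.7 CPM, against 7.02, 15.3 and 25.2 CPM in BWM and 16.7, 27.6 and 38.3 CPM in saline rats on the 37-library scale.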

How the data were processed

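The 10 libraries were made from poly-A RNA with a stranded kit and sequenced as single-end reads of whole hypothalamus, 1 animal each. The authors trimmed reads with cutadapt 1.16 and other versions, mapped them to the rat genome Rnor_6.0 with STAR 2.7.2b and counted them per gene on RefSeq exons with featureCounts 1.6.4, by strand, giving multi-mapping and multi-overlapping reads as fractions. The deposited values are thus estimated counts, neither normalized nor log-transformed, and 30.8% of nonzero values were not whole (tolerance 1e-06). Genes with near-identical copies, such as the globin genes, share reads. Qrfp, Ogn and Rps19 each had more than 1 gene entry, and every entry was counted in its list.

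Counts were rounded, which changed no library total by more than 0.000837%. The edgeR filter filterByExpr (minimum count 10, minimum total 15) left 20457 of 38513 genes. These were scaled by TMM and tested in edgeR 4.0.16 (R 4.3.3) by the robust quasi-likelihood test with Benjamini-Hochberg adjustment. Levels are CPM over TMM-scaled totals. SE was the log2 fold change divided by the square root of the F statistic. Alternatives used DESeq2 1.42.0, other scaling or filters, more libraries, a replicate block, and left-out libraries. The code was tested on simulated data. All samples were assigned from the labels, and replicates are separate animals. No pair of libraries agreed within sampling noise. A fold over a group at 0 was computed against 3 counts over the group.

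The groups, gene lists and markers were chosen with earlier results of these data known. Named genes were the 10 with the smallest p in each direction, with and without BWM replicate 5, and members of the lists that passed, had the smallest p or define the pathway. A gene of the fatty acid oxidation list is not reported here. Of the list symbols, Rfrp, Mt1a, Hspa1b and Slco1a4 matched no gene. Promoters came from RefSeq (GRCr8), whose coordinates are not comparable with Rnor_6.0.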

Additional observations from a re-analysis of the deposited data

Results flagged for a closer look

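In the 7 BWM libraries, 120 genes and list sums were checked for a highest or lowest library whose gap to its neighbour exceeded, as a share of the group's range, Dixon's 95% critical value for 7 samples. For independent and normally distributed values, about 1 in 20 such groups would be flagged by chance. The check used CPM without a log scale, and some genes were also part of a list sum. That share is therefore no yardstick for the count here. The 3 saline libraries were too few to check. The values met this limit in 27 cases, and their causes were not tested.

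BWM replicate 5 was outlying for the pituitary genes Gh1 (64037 CPM, next 530.2) and Prl (13157 CPM, next 112) and for the sum of anterior pituitary markers (78576 CPM, next 1243). It was also the highest library for Fosb (36.2 CPM, next 13.7), Egr2 (24.7 CPM, next 8.13) and Per1 (149 CPM, next 103), for the sum of ER stress genes (4151 CPM, next 2846) and for that of mammillary markers (117 CPM, next 40.5). It was the lowest for Slc16a6, at 12.2 CPM.

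BWM replicate 7 stood apart for Dusp1 (211 CPM, next 90.6), Klf2 (87.4 CPM, next 39.7), Apold1 (129 CPM, next 34.0) and Lepr (36.1 CPM, next 13.1). The marker sums of endothelium (986 CPM, next 639), tanycytes (1489 CPM, next 689) and habenula and thalamus (254 CPM, next 144) were outlying in the same library.

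BWM replicate 1 was outlying for Mc4r (12.8 CPM, next 5.31) and for the sums of striatal (4682 CPM, next 491), cortical and hippocampal (683 CPM, next 227), AMPK (805 CPM, next 728) and thyroid axis genes (1249 CPM, next 869.9). BWM replicate 6 was outlying for Agrp (16.5 CPM, next 6.97) and Cck (177 CPM, next 42.0). Ttr (2079.6 CPM, next 873) and the choroid plexus sum (2649 CPM, next 1238) were outlying in BWM replicate 2, and Hbb (74.1 CPM, next 26.4) and the red blood cell sum (307 CPM, next 117) in BWM replicate 3.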

How the results depend on the processing

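The count of 0 genes called by edgeR was the same with DESeq2 size factors, without a filter on low counts, with all 37 libraries of batch A and without a threshold on the fold change. It was 0 genes lower under every alternative run. DESeq2's Wald test called 7 genes higher (6 without BWM replicate 5), DESeq2 with betaPrior 1, and the model of 65 libraries with a batch term 9, among them Gh1, Prl, Pou1f1 and Fshb of the pituitary. Leaving out each library gave 0 to 1 genes, the 1 being Apold1 without BWM replicate 7. In the 2 sets chosen after seeing the data, without BWM replicate 1 and saline replicate 3, and also without BWM replicate 5, 0 genes were called, with smallest adjusted p values of 0.87 and 0.252.

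Replicate numbers did not pair the samples: correlations of same-numbered deviations were -0.54, -0.18 and 0.05. With the number as a replicate block edgeR called 0 genes, 124 higher and 205 lower at an unadjusted p under 0.05, and log2 fold changes turned to -0.05 for Npy, -1.84 for Pomc, -1.23 for Hcrt, -1.14 for Pmch and -0.23 for Cpt1a.

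Of 75 named genes, 15 changed sign in at least 1 alternative; the cause was not tested. In the 65-library model the values were -0.51 for Map3k6, -0.04 for Cdkn1a, 0.19 for Agrp, 0.63 for Cartpt, -0.87 for Cck, -0.89 for Avp, -0.74 for Oxt and -0.34 for Smpx. Avp was at -0.29 without BWM replicate 1 and saline replicate 3 and at -0.04 without BWM replicate 5 as well. Leaving out 1 library at a time gave -0.17 to 0.54 for Npy, -0.72 to 0.26 for Cartpt, -0.44 to 0.57 for Mc4r, -0.54 to 0.60 for Avp, -0.26 to 0.80 for Oxt and -0.40 to 0.40 for Trh. With 3 saline animals, 1 of them low in lateral hypothalamic markers, differences of feeding genes rest on few libraries.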
